A study of Mus musculus with 90 samples.

Results

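The cytosolic ribosomal protein genes of the mouse were taken as the protein-coding genes whose symbol begins with Rpl or Rps and a number, together with Rplp0, Rplp1, Rplp2 and Rpsa. Genes named as -ps pseudogenes and the Rps6k kinases were left out. This rule found 86 members among the 53697 genes of the count table, 52 named for the large subunit and 34 for the small subunit. It rests on symbols alone. It therefore takes in the paralogues Rpl3l, Rpl7l1, Rpl10l, Rpl22l1, Rpl36al, Rpl39l, Rps27l and Rps27rt, and also Rps19bp1, whose product binds a ribosomal protein and is not part of the ribosome.

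The cytosolic ribosome is built from a small and a large subunit, each made of ribosomal RNA and of ribosomal proteins that are needed in matching amounts. In mammals most of the mRNAs for these proteins begin with a C and a stretch of pyrimidines, the 5′ terminal oligopyrimidine (TOP) motif, through which the kinase mTORC1 and the RNA-binding protein LARP1 control their translation and stability. Interferon γ (IFNγ) signals through JAK kinases and is known to restrain the growth of many cell types. The table records mRNA, so neither ribosomes nor translation were measured.

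The RNA came from a pair of mouse tumour lines, YUMM2.1 (melanoma) and CT26 (carcinoma of the colon). Transcripts were counted at their 3′ ends by digital gene expression in 30 groups of 3 replicates, 90 samples in all. The study's methods state that outlier samples were discarded, more of CT26 than of YUMM2.1, without naming them. No library was left out here for that reason. Naive cells received 50 IU/mL IFNγ for 2 h or 24 h at 0 weeks. Chronic cultures stayed in 50 IU/mL IFNγ for 1, 2 or 3 weeks. Some were then harvested directly (0 h) and others 2 h or 24 h after a rechallenge with fresh cytokine. Control cultures, labelled as BSA (0 IU/mL IFNγ) at every time and called untreated here at 0 weeks, were harvested at 0, 1, 2 and 3 weeks with no rechallenge. Each line stands for 1 tumour grown in culture, the replicates are labelled as triplicate experiments, and p-values measure the spread between these libraries, which may be partly technical. Melanocytic markers summed to 15.6 to 69.8 CPM (counts relative to the library total) in YUMM2.1, led by Sox10, with Tyrp1 at 0. The epithelial markers of CT26 summed to 47.4 to 131 CPM, led by Krt20, with Epcam, Cdh1, Krt19, Cldn4 and Cldn7 at 0. Of the 8 epithelial markers searched, 2 had a median count above 0 there. The immune markers Cd3e and Adgre1 were at 0 in every library of both lines.

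The sequences around the annotated starts are shown for some of the members that later comparisons turn on, since the pyrimidine stretch is the feature these genes are known to share. RefSeq promoters (GRCm38.p6, 250 bases before to 50 bases after the start) matched 66 of the 86 members. A gene was counted where any of its promoters held the motif. A run of at least 6 pyrimidines opened by a C within 10 bases of the start was present in 48.5% of these 66, against 20.4% of 27025 genes with promoters. The E-box CACGTG, searched over the 300 bases and reading the same on either strand, was found for 9.09% of the 66 members and for 8.09% of the 27025 genes. Each line below gives 30 bases, 5′ to 3′ on the gene's strand, 15 on each side of the annotated start, and capitals mark the pyrimidine run.
Rpl31, chr1:39367836-39367865, plus strand: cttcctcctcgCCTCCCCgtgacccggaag
Rps9, chr7:3704026-3704055, plus strand: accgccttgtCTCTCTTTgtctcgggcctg
Rps23, chr13:90923107-90923136, plus strand: gccttcggctgggcggggCTTCCCgcaatg
Rps26, chr10:128626492-128626521, minus strand: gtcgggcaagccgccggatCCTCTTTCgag
Rpl27a, chr7:109519180-109519209, plus strand: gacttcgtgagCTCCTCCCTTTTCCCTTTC
Rps10, chr17:27635230-27635259, minus strand: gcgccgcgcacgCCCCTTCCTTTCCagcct
Rpl39, chrX:37085208-37085237, minus strand: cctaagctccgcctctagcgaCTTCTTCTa
Rpl39l, chr16:10170213-10170242, plus strand: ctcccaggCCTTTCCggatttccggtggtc
All 8 hold such a run, the paralogue Rpl39l as well as Rpl39. Where a gene had several promoters, the one with the longest run is shown. Other members discussed below, among them Rpl26, Rpl9, Rpl13, Rplp0 and Rpsa, held no such run, so the 8 do not stand for the members. A match in these letters is a description of the annotated start and does not show where transcription begins in these cells.

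Libraries of YUMM2.1 held 274719 to 3161276 counts and those of CT26 held 295157 to 2205285. The members took 12.7% to 18.9% of the YUMM2.1 counts (median 15.2%) and 13.7% to 18.8% of the CT26 counts (median 16.7%). After the filter on low counts, the test covered 83 members in YUMM2.1 and 84 in CT26. Rpl10l had 0 counts in all 90 libraries, Rpl3l had 3 counts in each line over its 45 libraries, and Rpl39l was tested in CT26 only. All values below are relative to the other transcripts of the same library, so that fewer ribosomal protein transcripts and more of other transcripts cannot be told apart.

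Many members could not be separated fully from copies of themselves. Over the last 300 bases of the transcripts, from which this method reads, 52 of the 86 members shared more than 50% of their stretches of 31 bases with another annotated gene, and 8 shared none. Mouse genomes hold many processed pseudogenes of these genes, and 277 of the rows of the table are named as such. The copies are described beside the comparison of the lines.

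A few libraries stood apart in single members, and they did so under the same label in both lines. Rpl31, whose product lies near the exit of the large subunit's peptide tunnel, was at 5672 CPM in control replicate 1 at 1 week and at 4912 CPM in control replicate 1 at 3 weeks in YUMM2.1. The other 10 control libraries of that line lay between 1157 and 1896 CPM. In CT26 the same 2 labels gave 3443 and 3454 CPM, and the other 10 control libraries lay between 1250 and 1689 CPM. Rps9, Rps23 and Rps26, which encode small-subunit proteins, were high in these same 4 libraries. Rps9 reached 4789 and 4976 CPM in YUMM2.1, and in CT26 it reached 4900 and 5131 CPM, against line medians of 1881 and 2237 CPM.

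Other members, chosen here after their values were seen, stood apart under other labels. Rps24 was at 4745 and 5260 CPM in YUMM2.1 in replicate 1 of the 24 h rechallenge at 1 and 3 weeks, and at 4695 and 4058 CPM in the same libraries of CT26. Its line medians were 1167 and 1364 CPM. Rps4x, the X-linked gene of RPS4, was at 9864 and 9481 CPM in YUMM2.1 in replicate 3 of the 2 h exposure at 0 and 2 weeks, and at 8311 and 7543 CPM in CT26, against line medians of 2190 and 3350 CPM. Rpl28 was raised over the line median by 1.94 to 2.27 times in YUMM2.1 in 5 libraries, among them replicate 3 of the 2 h exposure at 0 and 2 weeks, and by up to 2.47 times in the same libraries of CT26. In each of these members the libraries named were high in both lines.

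**Figure D1:**
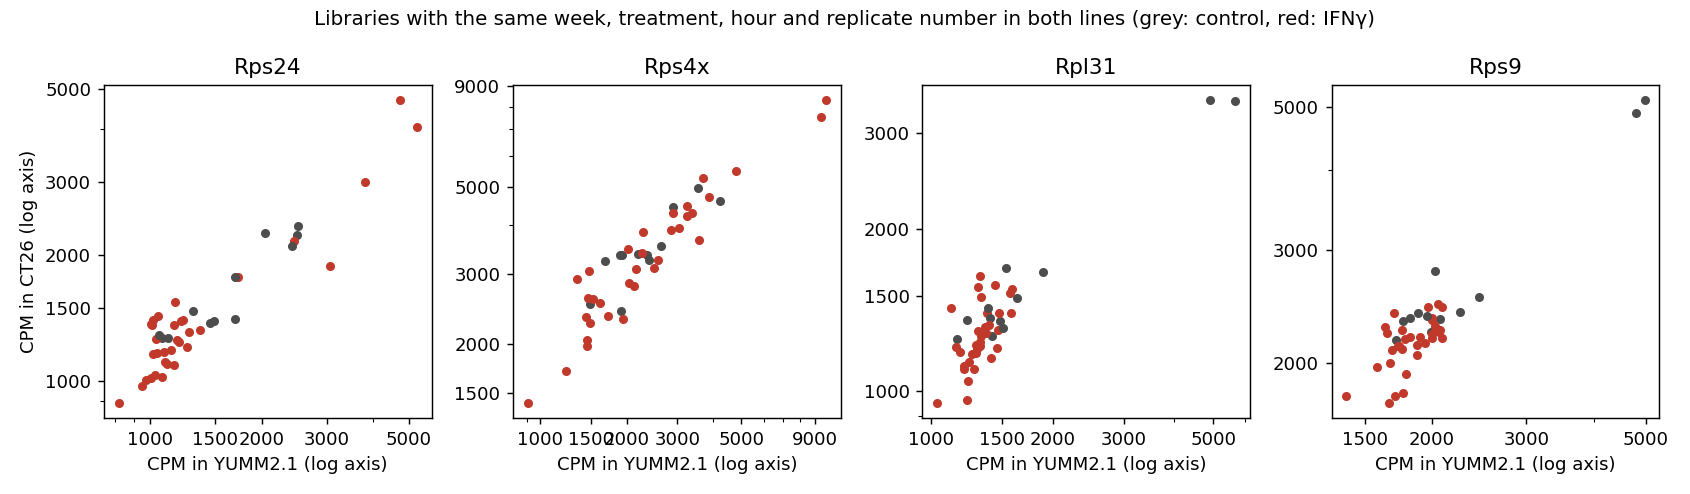
CPM of Rps24, Rps4x, Rpl31 and Rps9 in YUMM2.1 (x axis) and CT26 (y axis), both on log axes, with 1 point for each of the 45 labels that the lines share. The points at the upper right are single replicates that were high in both lines, such as Rps24 at 4745 and 4695 CPM.

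Over the 81 members with a median above 50 CPM in both lines, 34 values in YUMM2.1 and 22 in CT26 exceeded 1.8 times the line median, and 19 of them were in the library with the same label in both lines. The 1804 other genes above 50 CPM gave 457 such values in YUMM2.1 and 175 under the same label in both lines. When each value was taken as a deviation from its group mean, the deviations of a member in YUMM2.1 and in CT26 correlated over the 45 shared labels with a median Pearson r of 0.58, against 0.33 for the other genes. The r exceeded 0.5 for 57 of the 81 members, or 70.4%, and for 23.4% of the other genes. It was highest for Rps24 (r = 0.95, Spearman's rho 0.90, and r = 0.93 without the 2 labels farthest from the median), Rps4x (0.93, 0.90 and 0.90), Rps9 (0.92, 0.75 and 0.82), Rpl28 (0.91, 0.89 and 0.91) and Rpl31 (0.91, 0.65 and 0.79). Within a line the deviations also recurred between weeks, with a median r over 9 shared labels of 0.83 between 0 and 2 weeks and 0.66 between 1 and 3 weeks in YUMM2.1, and of 0.87 between 1 and 3 weeks in CT26. The other pairs of weeks gave 0.23 to 0.36 in YUMM2.1 and -0.09 to 0.58 in CT26. These correlations are descriptions over libraries that share their replicate number and total count between members, and the labels do not give the layout of the libraries. Results that rest on such libraries are given with and without them, and what sets the libraries apart was not tested.

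The members' summed share of the counts was highest in the control cultures at 1 week in YUMM2.1, at 18.5% ± 0.55 (SD, n = 3), and lowest in the 2 h rechallenge at 3 weeks, at 14.0% ± 0.93 (n = 3). In CT26 it was highest in naive cells after 2 h, at 17.9% ± 0.26 (n = 3), and lowest after the 2 h rechallenge at 3 weeks, at 15.1% ± 1.10 (n = 3). At 3 weeks the 3 control libraries of YUMM2.1 had shares of 17.4%, 16.7% and 16.9%, and the 3 chronic libraries had 15.1%, 14.8% and 14.6%. The groups did not overlap. In CT26 the control libraries had 17.5%, 16.4% and 18.8% and the chronic libraries 15.6%, 14.4% and 16.7%, and these groups overlapped by 1 library on each side.

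The share moved with the depth of the library. Over the 45 libraries of a line, the share and the log2 total count correlated with a Pearson r of 0.66 and a Spearman's rho of 0.75 in YUMM2.1, and of 0.62 and 0.80 in CT26. Without the 2 libraries farthest from the median total the r was 0.84 and 0.90. Within groups it was 0.64 and 0.39. The share of counts on mitochondrially encoded genes, a usual sign of RNA and cell quality, correlated with the members' share with an r of -0.56 in YUMM2.1 and -0.77 in CT26. With log2 total as a term of the fit, the members' slopes had a median of 0.12 log2 units per doubling of the total in YUMM2.1, where 81 of 83 lay above 0, and of 0.06 in CT26, where 71 of 84 did. The medians over all genes were 0.01 in both lines. Depth and mitochondrial share both differed between the groups at 3 weeks, as given with that comparison.

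**Figure D2:**
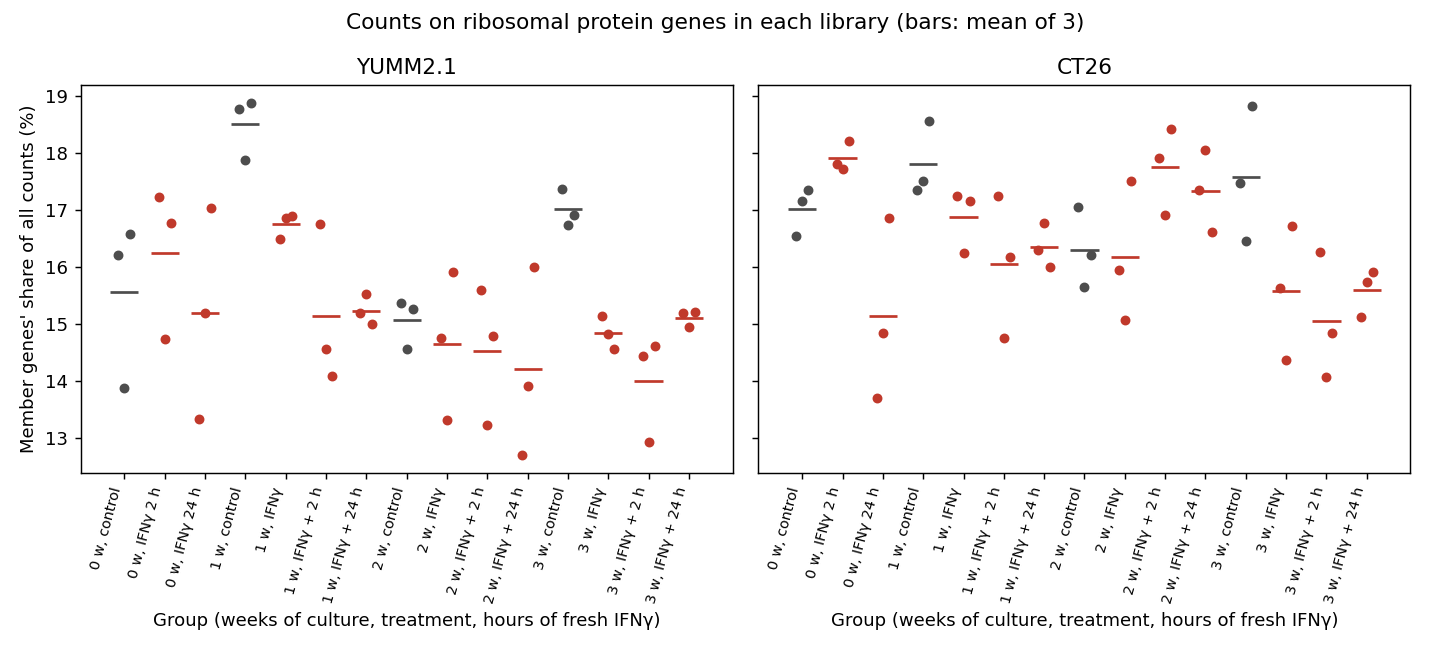
Share of each library's counts (percent) on the 86 members, by group, with 1 point per library, for YUMM2.1 and CT26. In YUMM2.1 the controls at 1 and 3 weeks sit at 16.7% to 18.9% and the chronic libraries at 3 weeks, with and without rechallenge, at 12.9% to 15.2%.

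Each comparison was tested with edgeR's quasi-likelihood test over all genes of a line, and a gene is said to be called at a Benjamini-Hochberg adjusted p below 0.05. Of 8 comparisons in each line, members were called in 2 in YUMM2.1 and in 3 in CT26, and all of these calls were decreases. For each of these comparisons the members' median log2 fold change is given beside that of all genes tested. A large group of highly counted genes can move together without any one of them being called. Under alternative settings most medians and counts are given for the members alone, without those of all genes.

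**Figure D3:**
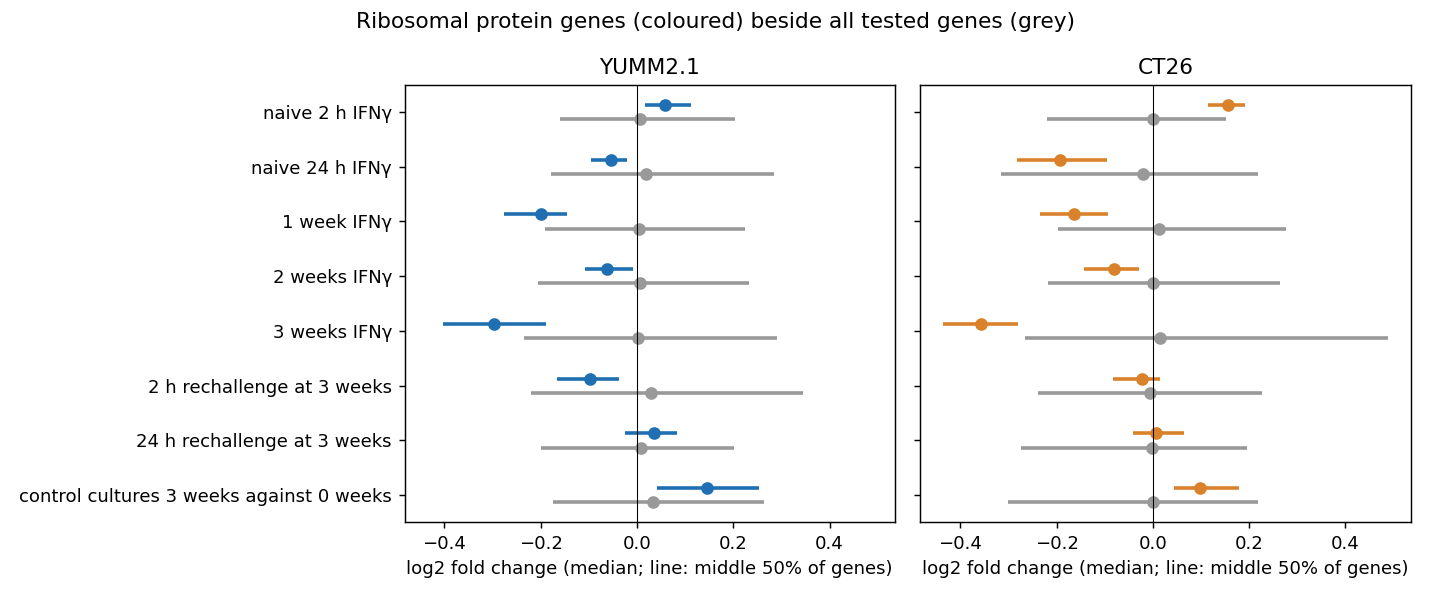
Median log2 fold change of the members (points, with bars from the lower to the upper quartile over members) and of all genes tested, for each comparison in YUMM2.1 and CT26. The members lie lowest at 3 weeks of IFNγ, at -0.30 and -0.36, while the medians of all genes there are 0.00 and 0.02.

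Of the exposures, 3 weeks of IFNγ gave the members' medians farthest from 0 in both lines. In CT26, 32 of 84 members were called, all of them lower in the chronic than in the control cultures, where 7.23% of all genes were called, 3.79% as lower. Of the 32, 21 belonged to the large and 11 to the small subunit, and in 25 the 3 chronic libraries all lay below the 3 controls. The members' median log2 fold change was -0.36, that of all genes 0.02, and 81 of the 84 members lay below 0. A total of 67 members had an unadjusted p below 0.05, where 1885 of all 8516 genes did, and DESeq2 called 30. In YUMM2.1, 2 of 83 members were called, where 0.97% of all genes were, 0.25% as lower. The median was -0.30 against 0.00 for all genes, and DESeq2 called 1. There 49 members had an unadjusted p below 0.05, where 1011 of all 9589 genes did.

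Groups that do not overlap were more frequent than the calls. In YUMM2.1, 67 of 83 members had all 3 chronic libraries below all 3 controls, against 11.8% of all genes, and in CT26 39 of 84 did, against 12.1%. In the 83 members tested in both lines, 76 lay below 0 in both, 47 had an unadjusted p below 0.05 in both, and Rps9 and Rps23 were called in both. The difference between the lines in this response was itself tested in a fit of all 90 libraries. It called 0 members by edgeR, where 0.106% of all genes were called, and DESeq2 called 0. No member had an unadjusted p below 0.05, where 664 of all 10339 genes did. The members' differences, CT26 less YUMM2.1, had a median of 0.01 log2 units with quartiles of -0.05 and 0.09, beside a median of 0.10 for all genes. That fit took the libraries as independent, although libraries with the same label deviated together in both lines. With the shared label as a block, added after the data were seen, edgeR called 0 members, where 0.213% of all genes were called. In that fit 2 members had an unadjusted p below 0.05.

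Of the called members, 4 were those raised in control replicate 1 as described above. Rpl31 (ENSMUSG00000073702.11, chr1:39367842-39371911 of GRCm38) was at 1197, 964 and 1281 CPM in the chronic libraries of CT26 and at 3454, 1308 and 1689 CPM in the controls. The groups did not overlap, and the high value was control replicate 1. Its log2 fold change was -0.91 (SE 0.21, adjusted p = 0.00408, n = 3). In YUMM2.1 it was at 1295, 1222 and 1363 CPM against 4912, 1505 and 1528 CPM, with a log2 fold change of -1.04 (SE 0.28) that was not called (adjusted p = 0.0523). Rps9 was at 2139, 1735 and 2227 CPM in CT26 against 5131, 2370 and 2787 CPM, and fell by 0.76 on the log2 scale (SE 0.18, adjusted p = 0.00477). In YUMM2.1 it was at 1877, 1665 and 1651 CPM against 4976, 1960 and 2031 CPM, and fell by 0.78 (SE 0.21, adjusted p = 0.0438). Rps23, whose product lines the decoding centre, fell by 0.68 in YUMM2.1 (SE 0.17, adjusted p = 0.028). In CT26 Rps23 fell by 0.67 (SE 0.16, adjusted p = 0.00637), and its groups overlapped there. Rps26 fell by 0.80 in CT26 (SE 0.26, adjusted p = 0.0482).

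Without the 4 control libraries numbered 1 at 1 and 3 weeks, an alternative chosen after the values were seen, none of these 4 members was called in either line. In CT26 the log2 fold changes were then -0.40 (SE 0.13) for Rpl31, -0.35 (SE 0.11) for Rps9, -0.42 (SE 0.15) for Rps23 and -0.43 (SE 0.25) for Rps26, and in YUMM2.1 they were -0.23, -0.20, -0.30 and -0.33. The medians of the members were then -0.30 in YUMM2.1 and -0.40 in CT26. In YUMM2.1 no member was called without these libraries, and in CT26 19 were, of which 17 were among the 32.

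Outside those 4 members the chronic and control libraries of CT26 were closer to each other. Rps27a, which encodes a fusion of ubiquitin and a small-subunit protein, was at 1886, 1508 and 1883 CPM in the chronic libraries and 2276, 2242 and 3078 CPM in the controls. It fell by 0.53 on the log2 scale (SE 0.15, adjusted p = 0.0263). Rpl7 was at 753, 659 and 823 CPM against 971, 949 and 1269 CPM and fell by 0.52 (SE 0.15, adjusted p = 0.0199). In both genes the 3 chronic libraries lay below the 3 controls, and chronic replicate 2 was the lowest.

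Rps6, whose product is phosphorylated by the S6 kinases downstream of mTORC1, had a fold of 0.73 in both lines. In CT26 its chronic libraries were at 2402, 1923 and 2361 CPM and its controls at 2994, 2868 and 3333 CPM, and it was called (log2 fold change -0.46, SE 0.11, adjusted p = 0.00471). In YUMM2.1 they were at 2057, 1740 and 1700 CPM and 2414, 2600 and 2585 CPM, and it was not called (-0.46, SE 0.14, adjusted p = 0.101). The groups did not overlap in either line. Of the members whose groups did not overlap in CT26, Rpl10, Rpl29, Rpl35a and Rps3a1 followed, with log2 fold changes from -0.50 to -0.45 that were called there. In YUMM2.1 these 4 genes had log2 fold changes of -0.35, -0.29, -0.37 and -0.42, none of them called. The other called members of CT26 ranged from -0.53 for Rpl37a, whose groups overlapped, to -0.32 for Rpl34.

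**Figure D4:**
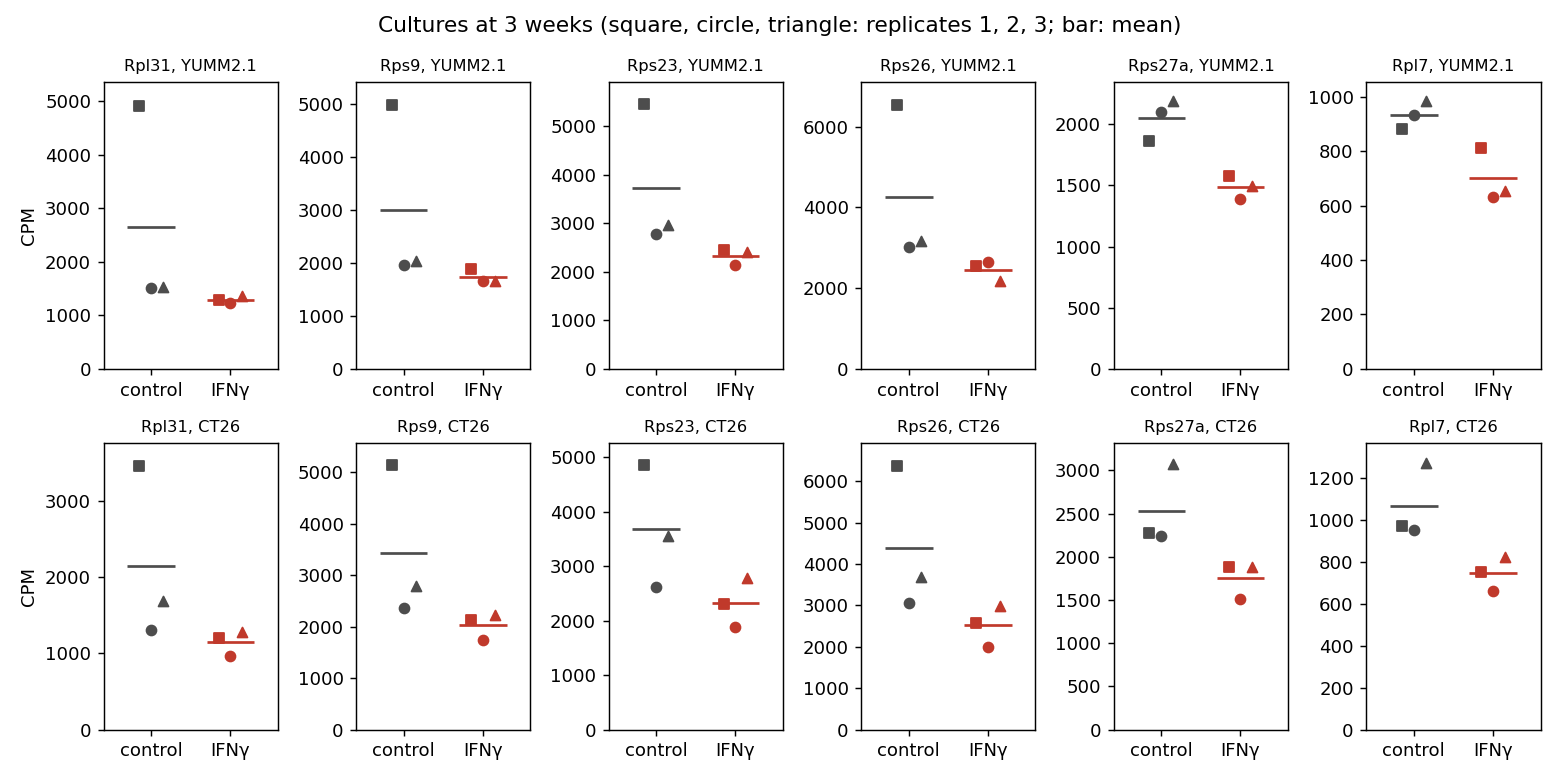
CPM of Rpl31, Rps9, Rps23, Rps26, Rps27a and Rpl7 in control and chronic cultures at 3 weeks, for YUMM2.1 and CT26, with squares, circles and triangles for replicates 1, 2 and 3. In the first 4 genes control replicate 1 stands above every other library, and in Rps27a and Rpl7 all 3 controls sit above the 3 chronic libraries, with control replicate 3 highest.

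The stalk of the large subunit, which recruits translation factors, is made by Rplp0, Rplp1 and Rplp2. In CT26 at 3 weeks Rplp0 fell by 0.41 (SE 0.11, adjusted p = 0.0186), from 5676 ± 403 to 4292 ± 572 CPM (SD, n = 3). Rplp1 and Rplp2 had log2 fold changes of -0.38 and -0.32 and were not called. In YUMM2.1 the 3 genes gave -0.41, -0.24 and -0.19, none called. Rpl13a, like Rplp0 a common reference gene for quantitative PCR, fell by 0.33 in CT26 (SE 0.10, adjusted p = 0.025), from 2535 ± 186 to 2018 ± 302 CPM, while YUMM2.1 gave -0.23 on the log2 scale, not called (adjusted p = 0.44). Rpsa, the laminin receptor gene, had values of -0.19 in YUMM2.1 and -0.30 in CT26, neither called.

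The paralogues were compared with their classical partners in the same contrast. Rpl22l1 and Rpl22 had log2 fold changes of -0.42 and -0.40 in CT26, of which the first was called (adjusted p = 0.0439), and of -0.45 and -0.50 in YUMM2.1, neither called. Rps27l, a p53 target, fell by 0.33 in CT26 (adjusted p = 0.0423) while Rps27 had -0.14, not called. Rpl7l1 had -0.29 in CT26 and -0.02 in YUMM2.1, and Rpl36a, which fell by 0.48 in CT26 with overlapping groups (adjusted p = 0.0315), had a partner Rpl36al at -0.31 that was not called. Rpl39l had -0.16 in CT26, not called. Large and small subunit members had medians of -0.38 and -0.34 in CT26 and of -0.30 and -0.29 in YUMM2.1.

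The depth of the libraries differed in the same contrast. The chronic libraries at 3 weeks had totals of 274719 to 1617485 in YUMM2.1 against 2354083 to 3047691 in the controls, and of 295157 to 1080409 in CT26 against 1318011 to 2183005. With log2 total as a term of the fit, chosen after the data were seen, YUMM2.1 had 0 called members and a median of -0.077, and CT26 had 3 and a median of -0.26. The mitochondrial share was 6.09%, 6.45% and 6.46% in the chronic libraries of YUMM2.1 against 5.62%, 5.83% and 5.71% in the controls, and 7.08%, 7.43% and 7.39% against 6.51%, 6.24% and 5.79% in CT26, with no overlap in either line. Its part in the members' difference was not tested. Without the samples under 25% of the line's median total, which removed chronic replicate 3 at 3 weeks in each line and chronic replicate 3 at 1 week in CT26, 0 members were called in YUMM2.1 and 58 in CT26. With only the compared groups in the fit, 13 members were called in YUMM2.1 and 0 in CT26, and with library totals as the only scaling 1 and 4 were. Leaving out 1 replicate number at a time left 0, 1 and 0 calls in YUMM2.1 without numbers 1, 2 and 3, and 0, 4 and 18 in CT26. Against the untreated cultures of 0 weeks in place of the 3-week controls, the medians were -0.15 in YUMM2.1, with 0 calls, and -0.24 in CT26, with 7 calls. The counts and medians of these alternatives are not set beside those of all genes here.

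After 1 week the members pointed the same way with smaller sizes. In YUMM2.1 the median was -0.20, against 0.00 for all genes, and 48 of 83 members had groups that did not overlap with the chronic libraries lower, against 8.9% of all genes. Rpl31 was the single member called, where 0.73% of all genes were. It was at 1359, 1407 and 1574 CPM in the chronic libraries and at 5672, 1634 and 1896 CPM in the controls, with a log2 fold change of -1.09 (SE 0.27, adjusted p = 0.0381). Without the 4 control libraries its log2 fold change was -0.29 and it was not called, and against the untreated cultures of 0 weeks it was 0.071. In CT26 the median was -0.16 against 0.01, 22 of 84 members did not overlap and were lower, against 6.74% of all genes, and 0 members were called by edgeR, where 0.728% of all genes were. DESeq2 called 0 as well, and 11 members had an unadjusted p below 0.05, where 624 of all 8516 genes did. Against the untreated cultures of 0 weeks the medians at 1 week were 0.11 in YUMM2.1 and -0.013 in CT26, and the control cultures of the same week had totals of 2309928 to 3161276 in YUMM2.1 and 1166560 to 2205285 in CT26. The chronic libraries had 484092 to 1965197 and 322486 to 1398869, and with log2 total as a term of the fit the medians were -0.070 and -0.081.

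After 2 weeks no member was called in YUMM2.1 by edgeR, where 1.12% of all genes were, or by DESeq2. The median was -0.06 against 0.01 for all genes. An unadjusted p below 0.05 was found for 1 member and for 689 of all 9589 genes. In CT26 the median was -0.08 against 0.00 for all genes, and 2 members were called, where 1.67% of all genes were. Rpl27a (ENSMUSG00000046364.14, chr7:109519147-109522367) was at 898, 749 and 910 CPM in the chronic libraries and at 1970, 1365 and 1419 CPM in the controls, and fell by 0.89 (SE 0.15, adjusted p = 6.18e-05, n = 3). Rps10 (ENSMUSG00000052146.16, chr17:27630418-27636669) was at 542, 536 and 583 CPM against 905, 870 and 886 CPM and fell by 0.68 (SE 0.12, adjusted p = 0.000312). Neither gene's groups overlapped, and the totals of the compared libraries did, at 1080166 to 1736116 and 947459 to 1448801. In YUMM2.1 the same contrast gave -0.12 for Rpl27a and 0.12 for Rps10, neither called. Without replicate 1 neither gene was called in CT26, at log2 fold changes of -0.73 for Rpl27a and -0.63 for Rps10, and both were called without replicate 2 and without replicate 3. At 3 weeks in CT26 the log2 fold changes were -0.18 for Rpl27a and -0.28 for Rps10, neither called. The highest CT26 group mean of Rpl27a, 1609 CPM, was that of the chronic cultures at 1 week.

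In naive CT26 cells after 2 h of IFNγ the members lay above the controls. Of 84 members, 59 had all 3 exposed libraries above the 3 controls, against 7.87% of all genes, and 80 lay above 0. The median was 0.16 against 0.00 for all genes. By edgeR 0 members were called, where 0.235% of all genes were, and DESeq2 called 0. An unadjusted p below 0.05 was found for 1 member and for 310 of all 8516 genes. The exposed libraries had members' shares of 17.8%, 17.7% and 18.2% and the controls 16.5%, 17.2% and 17.3%, with totals of 1417934 to 1670341 and 1458270 to 1677329. With library totals as the only scaling the median was 0.077. In YUMM2.1 the median was 0.06 against 0.01, and 1 of 83 members did not overlap and was higher, against 4.89% of all genes. EdgeR called 0 members, where 0.24% of all genes were called, and DESeq2 called 0. There 1 member had an unadjusted p below 0.05, where 348 of all 9589 genes did.

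After 24 h in naive CT26 cells the members lay the other way. The median was -0.19 against -0.02, and 49 of 84 members had exposed libraries below all controls, against 9.24% of all genes. An unadjusted p below 0.05 was found for 17 members and for 971 of all 8516 genes. EdgeR called 0 members, where 2.04% of all genes were called, and DESeq2 called 1. The exposed libraries had shares of 13.7%, 14.9% and 16.9% and totals of 519097, 618598 and 1337965, in the same order, and the controls had 16.5% to 17.3% at 1458270 to 1677329. In YUMM2.1 the median was -0.05 against 0.02, and 1 of 83 members did not overlap and was lower, against 5.55% of all genes. There edgeR called 0 members, where 0.886% of all genes were called, and DESeq2 called 0. No member had an unadjusted p below 0.05, where 673 of all 9589 genes did. The difference between the lines in the 24 h response called 0 members by edgeR, where 0.087% of all genes were called, and 0 by DESeq2. No member had an unadjusted p below 0.05, where 848 of all 10339 genes did. The median of this difference was -0.10 over members and -0.03 over all genes. With the shared label as a block edgeR again called 0 members, where 0.329% of all genes were called. In that fit 7 members had an unadjusted p below 0.05.

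Fresh IFNγ after 3 weeks left no member called in either line. In YUMM2.1 the median after 2 h was -0.10 against 0.03 for all genes. Of 83 members, 8 did not overlap and were lower, against 4.87% of all genes. An unadjusted p below 0.05 was found for 5 members and for 1156 of all 9589 genes. EdgeR called 0 members, where 1.08% of all genes were called, and DESeq2 called 0. In CT26 the median after 2 h was -0.02 against -0.01, and 3 of 84 did not overlap and were lower, against 4.37% of all genes. There 3 members had an unadjusted p below 0.05, where 618 of all 8516 genes did. EdgeR called 0, where 0.0117% of all genes were called, and DESeq2 called 0. After 24 h the medians were 0.04 in YUMM2.1, against 0.01 for all genes, and 0.01 in CT26, against -0.003. An unadjusted p below 0.05 was found for 2 members and 351 genes in YUMM2.1, and for 1 member and 439 genes in CT26. Neither tool called any member. EdgeR called 0% of all genes in both of these comparisons.

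The control cultures themselves were compared between 3 weeks and 0 weeks. In YUMM2.1 the median was 0.14 against 0.03 for all genes, and 22 of 83 members did not overlap and were higher at 3 weeks, against 10.7% of all genes. EdgeR called 0 members, where 0.521% of all genes were called, and DESeq2 called 2. There 14 members had an unadjusted p below 0.05, where 799 of all 9589 genes did. The totals were 2354083 to 3047691 at 3 weeks and 812316 to 1867497 at 0 weeks. In CT26 the median was 0.10 against 0.00, and Rps10 was the single member called, where 0.916% of all genes were. It was at 651, 521 and 695 CPM at 3 weeks and at 859, 911 and 893 CPM at 0 weeks, and fell by 0.51 (SE 0.12, adjusted p = 0.0249). Without the control libraries numbered 1 at 1 and 3 weeks, or without any one replicate number, it was not called.

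The untreated lines were compared with each other, and here the tissue, the mouse strain and the line cannot be told apart. In a fit of all 90 libraries, 49 of 84 members were called, 10 as higher and 39 as lower in YUMM2.1 than in CT26, where 46% of all genes were called, 25.9% as higher and 20.1% as lower. In all 49 the groups did not overlap. With the shared label as a block 64 members were called, where 47.9% of all genes were. Over the 84 members, 11 had groups that did not overlap with YUMM2.1 higher, against 30.3% of all genes, and 49 with YUMM2.1 lower, against 24.6%. The median over members was -0.38 against 0.08 for all genes. With library totals as the only scaling it was -0.21 against 0.24.

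Rpl39l was present in one line only. This gene is an autosomal paralogue of the X-linked Rpl39 and is best known from male germ cells. It had 0 counts in the 3 untreated libraries of YUMM2.1 and 625 to 669 counts in those of CT26, which is 409 ± 23.7 CPM of the library total (SD, n = 3). At a floor of 3 counts per library it was at least 171-fold lower in YUMM2.1, and this floor covers counting error only. Over all libraries it had 1 count in the 45 of YUMM2.1 and 24753 counts in the 45 of CT26, where it lay between 391 and 524 CPM in every one. Its groups in CT26 lay close together, since its lowest group mean was 401 CPM, in chronic cultures at 3 weeks, and its highest 497 CPM. Rpl39 itself averaged 733 CPM in the untreated cultures of YUMM2.1 and 864 CPM in those of CT26, with a log2 fold change of -0.24 (SE 0.23) that was not called.

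For several of the members higher in YUMM2.1 the counts of a similar copy were higher in CT26. Rps2 (chr17:24718116-24721929) was at 262, 339 and 349 CPM in YUMM2.1 and at 30, 51 and 16 CPM in CT26, with a log2 fold change of 3.29 (SE 0.34, adjusted p = 1.96e-13). Its processed copy Rps2-ps10, which shares most of its 3′ sequence, had 272, 59 and 153 counts in those YUMM2.1 libraries and 968, 1406 and 1372 counts in CT26. When the counts of pseudogenes named for a member were added to it, the log2 fold change of Rps2 turned to -1.09. Rpl26, at 1.92 (SE 0.15), had 698, 708 and 721 counts in CT26 while the unnamed copy Gm15772 had 1297, 1568 and 1777, and 0 counts of Gm15772 were found in the 3 libraries of YUMM2.1. With the most similar pseudogene added to each of 61 members, an alternative chosen after the values were seen, Rpl26 had a log2 fold change of 0.23 and was no longer called, and Rps2 had -1.12.

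Over all libraries of CT26, Rps2-ps10 took 96.8% of the counts assigned to either it or Rps2. By the same measure Gm15772 took 66.7% beside Rpl26, and Gm11361 took 56.3% beside Rps18. In YUMM2.1 these shares were 22.1%, 0.032% and 0.942%. Gm6472 took 34.3% beside Rps7 in CT26, Rpl35a-ps2 took 27.9% beside Rpl35a, Rps3a2 took 26.1% beside Rps3a1 and Rpl3-ps1 took 7.24% beside Rpl3, while in YUMM2.1 the highest of these 4 shares was 0.124%. Wdr89, the gene that shared the most 3′ sequence with Rplp2, took 38.6% beside it in CT26 and 31.7% in YUMM2.1. In CT26 Gm12191 took 24.0% beside Rpl30 and Gm8730 took 11.5% beside Rplp0, against 0.0034% and 0.020% in YUMM2.1. Whether these counts came from the copies or from the genes was not tested. Gm11361 is annotated as protein-coding, so its counts were in none of the pseudogene alternatives. The difference of Rps18 between the untreated lines, at 1.27 (SE 0.15), was not tested with them added. Summed, Rps18 and Gm11361 had 5222, 4098 and 5194 CPM of the library total in untreated YUMM2.1. In untreated CT26 they had 4173, 4280 and 4123 CPM, and the summed groups overlapped.

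**Figure D5:**
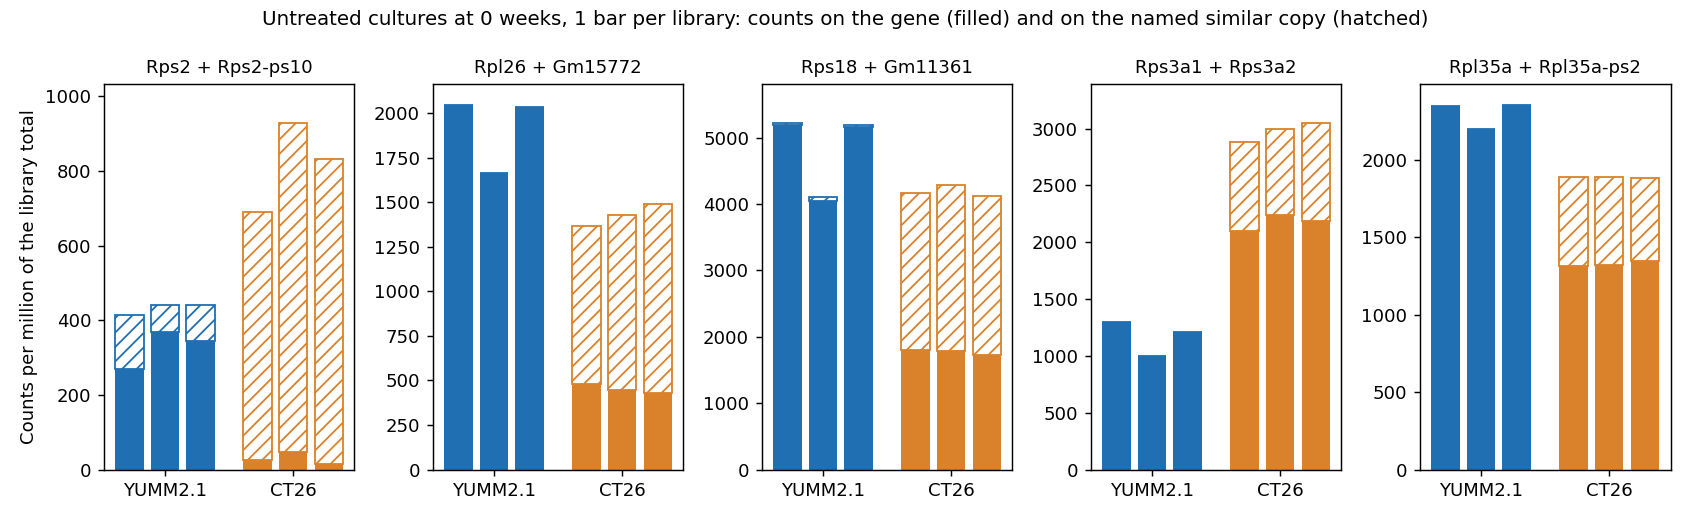
CPM of the library total for Rps2, Rpl26, Rps18, Rps3a1 and Rpl35a (filled) and for 1 similar copy of each (hatched) in the 3 untreated libraries of YUMM2.1 and of CT26. The hatched part is large in CT26, where Rps2-ps10 had 968 to 1406 counts beside 25 to 75 of Rps2, and small in YUMM2.1 except for Rps2.

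Among the members lower in YUMM2.1, Rpl8 was at 941, 601 and 940 CPM in YUMM2.1 and at 2169, 2252 and 2309 CPM in CT26 (log2 fold change -1.43, SE 0.17, adjusted p = 1.18e-11). Rpl9 had -1.33 (SE 0.16) and Rpl13 -0.94 (SE 0.12), and with the most similar pseudogene added the 3 genes gave -1.46, -1.36 and -0.97. Rpl22l1 was at 449, 316 and 440 CPM in YUMM2.1 and 910, 928 and 939 CPM in CT26 (-1.20, SE 0.16, adjusted p = 1.41e-09), while its partner Rpl22 was higher in YUMM2.1, at 0.50 (SE 0.17, adjusted p = 0.014). Rps14 was 2.15-fold higher in YUMM2.1, and Rplp0, Rplp1, Rplp2 and Rpsa were lower by 0.48, 0.37, 0.41 and 0.62 log2 units.

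Other genes of the ribosome were read from lists chosen with earlier results of these data known. At 3 weeks translation factors whose mRNAs carry the TOP motif had medians of -0.15 in YUMM2.1 and -0.12 in CT26 over 19 genes. In each line 1 of them was called, where 0.97% of all genes were in YUMM2.1 and 7.23% in CT26. These were Eef1d at -0.59 in YUMM2.1 and Eif3h at -0.46 in CT26. Ribosome biogenesis factors had medians of 0.04 in both lines over 59 genes. In CT26, 4 of the 59 were called, where 7.23% of all genes were, with Wdr12 at -0.59 and Nob1 at -0.70 among the 3 that fell and Wdr43 at 0.51. Of 16 chaperones and regulators tested in CT26, 2 were called, where 7.23% of all genes were, and the median of the 16 was 0.29. Larp1, whose product binds TOP mRNAs, rose by 1.61 (SE 0.47, adjusted p = 0.025) and Zfp622 by 1.54. In YUMM2.1 0 of 18 were called, where 0.97% of all genes were, and their median was 0.02. RNA polymerase I genes had 0 calls among 14 in both lines at 3 weeks. At 2 weeks 2 of the 14 were called in CT26, where 1.67% of all genes were, Rrn3 at 1.02 and Polr1a at 0.89. In YUMM2.1 0 of the 14 were called at 2 weeks, where 1.12% of all genes were. Between the untreated lines, 34 of 59 biogenesis factors were called lower in YUMM2.1 and 4 higher, where 20.1% and 25.9% of all genes were, and their median was -0.63 against 0.08 for all genes.

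The members varied together from library to library. Over the 45 libraries of a line, the log2 CPM of a member and the mean of the other members correlated with a median r of 0.87 in both lines. These points share their totals, and the r was below 0.5 for 7 members of YUMM2.1 and 11 of CT26. Among those below that limit in both lines were Rps2, Rpl35, Rps24, Rpl28 and Rps19. The range of a member's 15 group means had a median of 0.61 log2 units in YUMM2.1 and 0.50 in CT26. The highest mean lay in the control cultures at 1 week for 70 of 83 members in YUMM2.1 and in naive cells after 2 h for 26 of 84 in CT26, and the lowest lay in the 2 h rechallenge at 3 weeks for 58 and 38. The narrowest ranges were 0.26 for Rpl12 in YUMM2.1 and 0.28 for Rpl5 in CT26. The biological coefficient of variation between replicates had a median of 12.2% over members in YUMM2.1 and 10.9% in CT26, against 9.98% and 9.31% for other genes of the same level and 18.8% and 15.5% for all genes, and was highest for Rps27rt, a retrogene copy of Rps27, at 87.0% and 146%.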

How the data were processed

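RNA of 45 libraries per line was measured by 3′ digital gene expression. The deposited values are counts per gene that the authors made from their reads. The submitters' notes name Salmon 0.13.1 and mm10 without giving their roles, and whether molecular identifiers were used is not given in the sources used here. Of 53697 gene identifiers, 53668 matched GENCODE mouse release 21 (GRCm38). The members and gene lists were chosen with earlier results of these data known.

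Counts were tested with edgeR 4.0.16 (quasi-likelihood, R 4.3.3) after its filter on low counts, with TMM scaling and 1 fit of the 15 groups per line, or of all 30 groups for comparisons between lines. Adjusted p-values (Benjamini-Hochberg) cover all genes tested, the SE is the log2 fold change over the root of F, and CPM are TMM-scaled unless the library total is named. The fit was also run on simulated counts, drawn independently for each library. These held no link between depth and the members' share and no deviations shared between labels, so they could not check the fit for either. The alternatives were 11 planned settings per comparison, DESeq2 1.42.0 among them, and up to 4 added after the data were seen. Members were named where called with groups that did not overlap, at most 10 per comparison by size, together with paralogues and their partners, stalk genes, Rpsa and Rpl13a, and others are said to be chosen later or given for a range. Intervals and floors cover counting error only. No pair of libraries was identical. Same-numbered replicates deviated together in 0 of 17 comparisons by the criterion of 3 correlations above 0.1, so the numbers were not taken as pairs. Some genes and a motif are not reported here.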

Additional observations from a re-analysis of the deposited data

Results flagged for a closer look

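Rpl27a, a large-subunit gene, moved in opposite directions in the control cultures of the lines between 0 and 3 weeks, with groups that did not overlap in either line. In CT26 it was at 914, 891 and 1104 CPM at 3 weeks and at 1417, 1448 and 1406 CPM at 0 weeks, a log2 fold change of -0.55 that edgeR did not call (adjusted p = 0.0525). In YUMM2.1 it was at 1205, 1344 and 1375 CPM and at 1173, 872 and 1169 CPM, a log2 fold change of 0.28 that was not called (adjusted p = 0.681). The difference between the lines was not tested.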

How the results depend on the processing

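Over 275 pairs of a comparison and a setting, the count of called members stayed within 1.5 times the reported one in 204, and the members' median moved by less than the replicate SD in 252. Most comparisons had 0 calls as reported, and a 0 that stayed 0 was counted among the 204. The 32 calls of CT26 at 3 weeks became 49 without the filter on low counts and 4 with library totals only. Without the filter on low counts the called members in YUMM2.1 became 2 (naive 2 h), 1 (naive 24 h), 4 (1 week), 20 (3 weeks, median -0.35), 7 (2 h rechallenge), 2 (24 h rechallenge) and 5 (control cultures). In CT26 they became 1, 8, 5, 4 (2 weeks), 49 (3 weeks), 4, 3 and 4 in the same order, and the 3-week difference between lines had 1 call and a median of -0.23. DESeq2 called 0 at 1 week, 1 at 3 weeks and 2 in the control cultures of YUMM2.1, and 1 after naive 24 h and 3 in the control cultures of CT26. With library totals only, YUMM2.1 had 0 calls at 1 week, 1 at 3 weeks (median -0.20) and 1 in control cultures. CT26 then had a median of 0.077 after naive 2 h, 1 call after naive 24 h, 4 at 3 weeks (median -0.17, with that of all genes at 0.21) and 2 in control cultures, and the untreated lines had a median of -0.21.

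With the depth covariate, added after the data were seen, YUMM2.1 had 0 calls at 1 week (median -0.070) and at 3 weeks (median -0.077) and a median of -0.065 after the 24 h rechallenge, and CT26 had a median of -0.081 at 1 week, 3 calls at 3 weeks (median -0.26) and 2 in control cultures. Without the 4 control libraries, also added, the calls were 0 at 1 and 3 weeks in YUMM2.1, 19 at 3 weeks in CT26 and 0 in its control cultures. Against 0-week controls, also added, YUMM2.1 had 0 calls at 1 week (median 0.11) and 3 weeks (median -0.15), and CT26 had a median of -0.013 at 1 week and 7 calls at 3 weeks. There the log2 fold change of Rpl31 at 1 week in YUMM2.1 turned to 0.071. With only the compared groups in the fit, YUMM2.1 had 0 calls at 1 week, 13 at 3 weeks, 1 after the 2 h rechallenge and 1 in control cultures, and CT26 had 1 after naive 2 h (median 0.13), 1 after naive 24 h, 0 at 3 weeks and 2 in control cultures.

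Without libraries under 25% of the line's median total, YUMM2.1 had 0 calls at 3 weeks, CT26 had 1 after naive 24 h, 58 at 3 weeks and 2 in control cultures, and the 3-week difference between lines had a median of -0.15. With named pseudogene counts added, YUMM2.1 had 1 call at 3 weeks, and Rps2 turned to -1.09 between lines, or -1.12 with the most similar pseudogene. TMM from non-members gave 1 call after naive 24 h and 2 in control cultures in CT26, and totals without mitochondrial genes gave a member share of 17.9% there. Leaving out 1 replicate number at a time gave 0 to 0 calls at 1 week in YUMM2.1, 0 to 1 at 3 weeks (median -0.34 to -0.25), 0 to 1 after the 2 h rechallenge and medians of 0.011 to 0.19 in control cultures. In CT26 it gave medians of 0.13 to 0.16 after naive 2 h, 0 to 3 calls after naive 24 h, medians of -0.25 to -0.12 at 1 week, 0 to 2 calls at 2 weeks, 0 to 18 at 3 weeks, medians of -0.17 to 0.17 after the 24 h rechallenge and 0 to 0 calls in control cultures. The causes were not tested.

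With the replicate block, 1 member was called in the control cultures of YUMM2.1, 3 at 3 weeks there, 1 after naive 24 h in CT26, 2 in its control cultures and 38 at 3 weeks. The correlations of same-numbered deviations ranged from -0.12 to 0.21.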
